A study of Mus musculus with 9 samples.

Results

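The 10 genes described here, Hectd2, Nedd4l, Zscan29, Il17rc, Aff4, Bcl6, Notch3, Tmem161a, Abca3 and R3hdml, were chosen because their level in the MODEL2 livers lay on the same side of both the CTRL and the MODEL1 livers. They are 10 of the 24419 gene symbols in the count table. RNA was sequenced from the livers of 9 male FVB mice on a normal diet, 3 libraries in each of 3 groups. The 3 CTRL mice were aged 13, 13 and 17 weeks. MODEL1 livers, each taken at 18 weeks, carried plasmids for NFE2L2 G31A and CTNNB1 T41A. MODEL2 mice, aged 19, 20 and 22 weeks, carried NFE2L2 T80K and the same CTNNB1 T41A. Each plasmid was given at 20 µg in 2 ml saline through the tail vein under high pressure, with Sleeping Beauty transposase, which integrates the genes into hepatocyte genomes. No group carried either change alone. The labels do not state what the CTRL mice received. The series' design text speaks of a control group with wild-type NFE2L2 and CTNNB1 T41A, but the ages of the sequenced CTRL mice are too low for the interval after injection that it gives.

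NFE2L2 (NRF2) is the transcription factor of the oxidative stress response, held down by the ubiquitin ligase adaptor KEAP1, which binds its DLG and ETGE motifs. Residue 31 lies in the DLG motif and residue 80 in the ETGE motif. CTNNB1 encodes beta-catenin, the transcriptional arm of Wnt signalling, and removal of its threonine 41 phosphorylation site stabilises it. The 10 genes belong to no single pathway. Hectd2 and Nedd4l are ubiquitin ligases of the HECT class, in which the enzyme itself carries ubiquitin before passing it to a substrate. Zscan29, Aff4 and Bcl6 act in the nucleus, Il17rc and Notch3 are cell-surface receptors, Tmem161a and Abca3 are membrane proteins, and R3hdml belongs to the CAP superfamily of secreted proteins.

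Each level below is that of a gene symbol as counted. The strand setting of the counting is not given in the sources used here, so a symbol's count may hold, or come from, reads of a gene on the opposite strand. Library totals ran from 219504 to 325177 counts, and 2639 genes held enough counts to be tested, all 10 described here among them. At this depth 1 count in a library equalled 3.14 to 4.85 normalised CPM, counts scaled to library size, and the 3 counts that a reading of 0 allows equalled 9.43 to 14.6 CPM. These limits cover counting error only. Ribosomal RNA precursor Rn45s took 2.20% to 13.4% of counts, with over 8% in CTRL replicate 1 and in MODEL1 replicates 1 and 3, called rich in Rn45s below. The 7 hepatocyte markers were all detected in every group, but together held only 341 to 768 counts per library, and their summed level was 2557 to 3101 CPM in CTRL, 1590 to 2260 CPM in MODEL1 and 1473 to 2094 CPM in MODEL2. Of the tested markers in this sum, Alb, Apoa1, Ttr and Cyp3a11 were lower in MODEL1 than in CTRL (-1.99 to -0.98 on the log2 scale). Apob was higher there (0.91). Markers of bile duct cells held 0 to 4 counts, of stellate and mural cells 0 to 5, of endothelium 47 to 101 and of macrophages 7 to 25. Most endothelial counts were those of Eng (45 to 96), while Pecam1 and Cdh5 were at 0 in MODEL2. Lymphocyte and neutrophil markers held 0 to 3 counts. The adult globins Hbb-bs, Hbb-bt and Hba-a1 were at 0 in all groups. Alas2, also listed as an erythroid marker, held 28 to 124 counts for CTRL, 84 to 122 for MODEL1 and 38 to 69 for MODEL2. The part of cell composition in the values below was not tested, and in whole tissue fewer cells of a type and less RNA per cell cannot be told apart. The mouse genes Nfe2l2 (2 to 14 counts) and Ctnnb1 (0 to 10 counts) were too low to test, so neither served as a check of the plasmids.

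In the fit to all 9 libraries, 5 of the 10 genes were higher and 5 lower in MODEL2 than in both other groups, and all 10 passed the threshold of an adjusted p of 0.05 in both comparisons. This is what the genes were chosen for, and nothing is read from it. Among all tested genes, 13.3% passed in MODEL2 against CTRL (8.3% higher and 4.96% lower) and 7.28% in MODEL2 against MODEL1 (3.87% higher and 3.41% lower). Only 0.417% passed as higher and 0.227% as lower in both. The 3 MODEL2 libraries stood clear of the other 6 for 8 of the 10 genes, against 3.75% of tested genes on the high side and 1.82% on the low side. The median size of the change, on the log2 scale, was 1.78 for the 10 genes and 0.47 for all tested genes in MODEL2 against CTRL, 1.77 and 0.39 in MODEL2 against MODEL1, and 0.40 and 0.55 in MODEL1 against CTRL. Comparisons that share a group share its 3 libraries, so the fold changes of a gene are given side by side and not correlated.

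**Figure D1:**
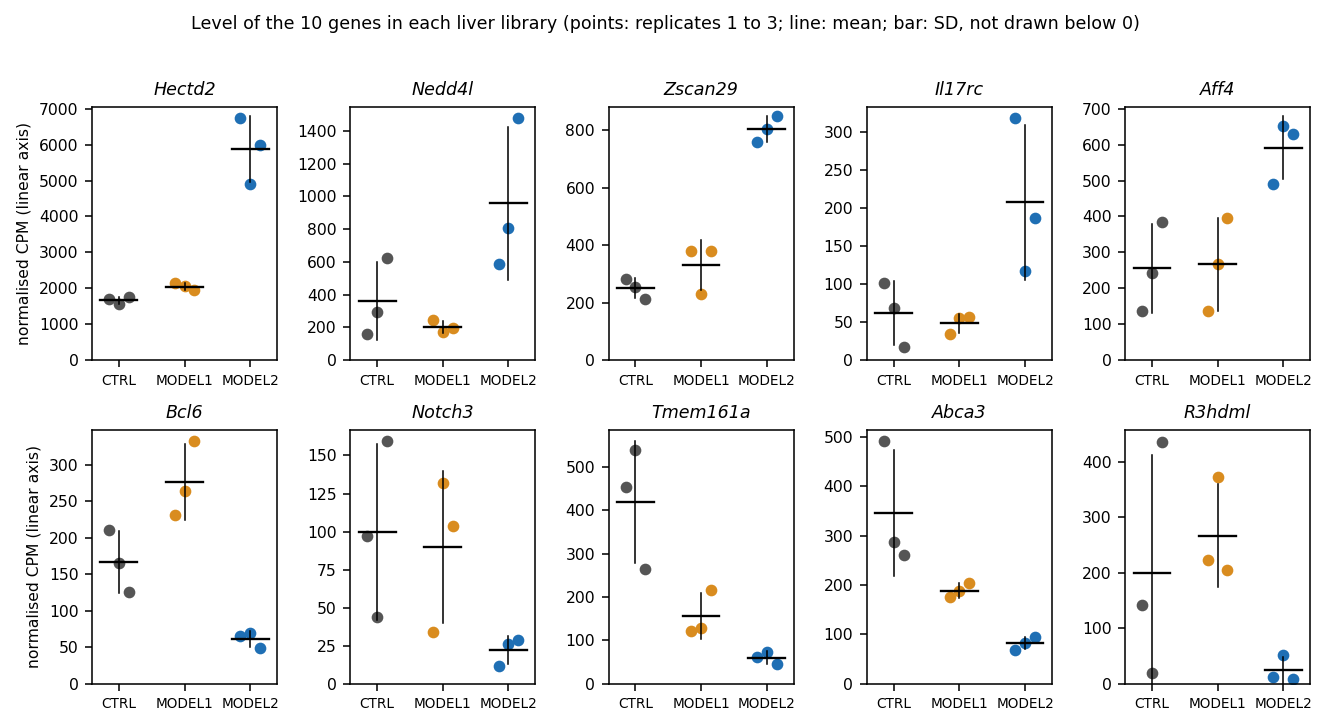
Normalised CPM (vertical axis, linear) of the 10 genes in CTRL, MODEL1 and MODEL2, with 1 point per library, a line at the mean and a bar for the SD, not drawn below 0. The upper row holds the 5 genes higher in MODEL2 and the lower row the 5 that were lower; a CTRL library reaches into the MODEL2 range only for Nedd4l and R3hdml.

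The label of the set says that these genes shifted in the T80K model alone, and in the fit to all 9 libraries Tmem161a and Abca3 went against it. MODEL1 against CTRL was not the contrast the genes were chosen on, but it uses the same 6 libraries. In it, 2 of the 10 passed, both lower, where 22.8% of all tested genes passed (11.9% higher and 11% lower). Tmem161a fell by 1.41 ± 0.32 on the log2 scale (standard error; edgeR adjusted p = 0.00209) and Abca3 by 0.88 ± 0.29 (edgeR adjusted p = 0.0316). MODEL1 and CTRL libraries also failed to overlap for Hectd2 and Bcl6, both higher in MODEL1 but not past the threshold, against 35.9% of tested genes with such a separation in either direction. Of the other 6, Nedd4l had the largest MODEL1 difference, -0.83 ± 0.38, and Aff4 the smallest, 0.07 ± 0.35. Neither call held in every setting. Tmem161a did not pass with age as a covariate (-0.56) or with CTRL replicate 3 as the only control (-0.76). Abca3 did not pass in these settings either (-0.56 and -0.47), nor without CTRL replicate 1 (-0.55), without any MODEL1 replicate (-0.94 to -0.83) or without the libraries rich in Rn45s (-0.60). Its call was also lost with other count filters, with only CTRL and MODEL1 fitted and with the replicate number as a block, at -0.90 to -0.85. Nedd4l passed as lower in MODEL1 with age as a covariate (-2.08), with CTRL replicate 3 as the only control (-1.63), without CTRL replicate 1 (-1.20) and with other count filters (-0.85 and -0.83). R3hdml passed as higher without CTRL replicate 3 (1.66).

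**Figure D2:**
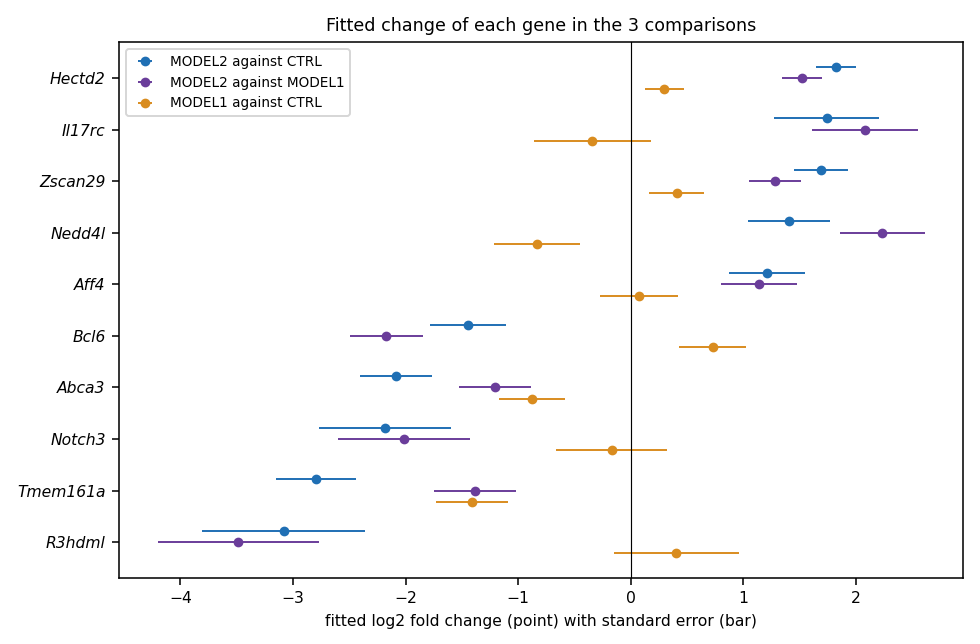
Fitted log2 fold change (horizontal axis; point) with its standard error (bar) of each gene in MODEL2 against CTRL, MODEL2 against MODEL1 and MODEL1 against CTRL. The first and second lie on the same side of 0 for every gene, which is how the genes were chosen; the third is past the threshold only for Tmem161a (-1.41) and Abca3 (-0.88), where it is negative like the others.

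Hectd2 encodes a HECT ubiquitin ligase and lies at chr19:36554639-36621135 on the plus strand (mm10, GENCODE M21). It was the most abundant of the 10 genes, with 419, 322 and 416 counts for CTRL (replicates in order, here and below), 563, 486 and 617 for MODEL1 and 1757, 1136 and 1474 for MODEL2. The lowest MODEL2 library stood 2.30-fold above the highest of the other 6, the widest gap of the set, and all MODEL1 libraries stood above all CTRL libraries. Mean level was 1666 ± 93.1 CPM for CTRL, 2047 ± 99.9 for MODEL1 and 5880 ± 921 for MODEL2 (SD, n = 3 each). The fitted log2 difference was 1.82 ± 0.18 against CTRL (3.53-fold) and 1.52 ± 0.18 against MODEL1 (2.87-fold). Per kilobase of exon, Hectd2 reached 649 ± 102 CPM in MODEL2, ahead of Zscan29 at 112 ± 6.29, the next gene in that order.

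The antisense gene Hectd2os (1500017E21Rik in the table) shares 1834 exon bases with Hectd2 on the opposite strand, 20.2% of the Hectd2 exons. As the strand setting is not given, it is not known to which of the pair reads from the shared bases were counted. Hectd2os held 15, 10 and 32 counts for CTRL, 13, 7 and 20 for MODEL1 and 20, 14 and 31 for MODEL2. Its groups overlapped, and it did not pass against CTRL (0.11 ± 0.46; edgeR adjusted p = 0.916) or MODEL1 (0.86 ± 0.47; edgeR adjusted p = 0.320).

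Nedd4l, also called NEDD4-2, is the HECT ligase known for removing the epithelial sodium channel from the cell surface, and it lies at chr18:64887705-65217828 on the plus strand. Its counts were 40, 61 and 149 for CTRL, 64, 40 and 62 for MODEL1, and 153, 186 and 364 for MODEL2. CTRL replicate 3, at 625 CPM, stood above MODEL2 replicate 1, at 587 CPM, so the CTRL and MODEL2 groups overlapped, while MODEL1 and MODEL2 did not. The group means were 361 ± 238 CPM for CTRL, 203 ± 37.1 for MODEL1 and 957 ± 466 for MODEL2 (SD, n = 3 each). The log2 difference was 1.40 ± 0.36 against CTRL and 2.23 ± 0.38 against MODEL1. Against CTRL, the threshold was missed without CTRL replicate 1 (1.05) or without MODEL2 replicate 3 (0.95), and the difference grew to 2.08 without CTRL replicate 3. A pair of opposite-strand genes lies in its body, A330084C13Rik with 277 shared exon bases and AC102333.1 with 0, and neither was matched to the table.

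The list of 33 HECT ligases, their adaptors and substrates of Nedd4l holds 4 tested genes, Hectd2 and Nedd4l among them. The other two were Wwp1, a ligase of the NEDD4 family, and Huwe1, a large ligase with many nuclear substrates. Wwp1 fell in MODEL1 against CTRL (-1.17 ± 0.20; edgeR adjusted p = 0.00017), and it passed as lower in MODEL2 against CTRL (-0.67 ± 0.20; edgeR adjusted p = 0.0287), the reverse of the direction of Hectd2 and Nedd4l. The MODEL2 call of Wwp1 was lost without any CTRL replicate, without MODEL1 replicate 3 and without any MODEL2 replicate (-0.74 to -0.58; edgeR adjusted p 0.0595 to 0.170), and in 6 further settings. Huwe1 did not pass in any comparison, with 0.18 ± 0.69 in MODEL2 against CTRL. Wwp1 shares exon bases with Gm12353 on the opposite strand.

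Zscan29, a zinc finger protein with a SCAN domain, through which such proteins pair, lies at chr2:121158273-121171125 on the minus strand. It held 70, 52 and 51 counts for CTRL, 100, 54 and 121 for MODEL1 and 198, 186 and 209 for MODEL2. The MODEL2 libraries were the most even of any group in the set apart from Hectd2 in CTRL and MODEL1, with a coefficient of variation of 5.61%, and the lowest stood 2.00-fold above the highest other library. Levels averaged 249.6 ± 34.5 CPM for CTRL, 329.7 ± 86.8 for MODEL1 and 804 ± 45.1 for MODEL2 (SD, n = 3 each). The difference came to 1.69 ± 0.24 on the log2 scale against CTRL (3.22-fold) and 1.28 ± 0.23 against MODEL1 (2.43-fold). Tubgcp4, a gamma-tubulin complex subunit on the opposite strand, shares 57 exon bases with it (0.795% of the Zscan29 exons). Tubgcp4 held 45, 47 and 45 counts for CTRL, 67, 28 and 71 for MODEL1 and 61, 50 and 73 for MODEL2, and did not pass in MODEL2 against CTRL (0.32 ± 0.30; edgeR adjusted p = 0.543) or MODEL1 (0.32 ± 0.30; edgeR adjusted p = 0.612). Of 18 SCAN-domain genes only Zkscan17 was tested beside Zscan29, and it did not pass (0.05 ± 0.51 in MODEL2 against CTRL). Zkscan17 shares exon bases with 4933439C10Rik on the opposite strand.

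Aff4, the scaffold of the super elongation complex that releases paused RNA polymerase II, lies at chr11:53350833-53421830 on the plus strand. Reads numbered 34, 50 and 92 for CTRL, 36, 63 and 126 for MODEL1, and 128, 151 and 155 for MODEL2. The spread within CTRL and MODEL1 was wide, and MODEL1 replicate 3, at 396 CPM, came close to MODEL2 replicate 1, at 491 CPM. Mean levels were 255 ± 125 CPM for CTRL, 267 ± 130 for MODEL1 and 591 ± 87.5 for MODEL2 (SD, n = 3 each). Aff4 had the smallest MODEL2 differences of the higher genes, 1.21 ± 0.34 against CTRL and 1.14 ± 0.34 against MODEL1. The threshold was missed against CTRL without CTRL replicate 1 (0.91), MODEL2 replicate 2 (1.13) or MODEL2 replicate 3 (1.17). Against MODEL1 it was missed without MODEL1 replicate 1 (0.84), MODEL1 replicate 2 (1.11) or any MODEL2 replicate (1.06 to 1.27). No gene on the opposite strand overlaps Aff4. Leap2, an antimicrobial peptide and ghrelin receptor ligand, lies 350 bases away on that strand and did not pass in MODEL2 against CTRL (0.15 ± 0.56; edgeR adjusted p = 0.900).

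Of the 17 genes listed for the elongation complex and its regulators, 5 were tested. Ccnt1, the cyclin T1 subunit of the kinase P-TEFb, rose in both models, with 3.19 ± 0.67 in MODEL2 (edgeR adjusted p = 0.00217) and 3.76 ± 0.65 in MODEL1 (edgeR adjusted p = 0.000149). These were 2.59 and 3.15 without CTRL replicate 1 and 3.84 and 4.39 without CTRL replicate 3. The MODEL2 call of Ccnt1 was lost with age as a covariate (3.08; edgeR adjusted p = 0.368) and with CTRL replicate 3 as the only control (2.46; edgeR adjusted p = 0.0726), and the MODEL1 call without the libraries rich in Rn45s (2.39; edgeR adjusted p = 0.0850). Hexim1, an inhibitor of that kinase, rose in MODEL1 against CTRL (1.31 ± 0.37; edgeR adjusted p = 0.0114), a call lost without the libraries rich in Rn45s (1.52) and when age was a covariate (1.62). It was lower in MODEL2 than in MODEL1 (-1.27 ± 0.37; edgeR adjusted p = 0.0387), a call lost without any single library of either group (-1.48 to -0.99). Ell3, an elongation factor, passed in MODEL2 against MODEL1 (2.24 ± 0.62; edgeR adjusted p = 0.0306). That call was lost without MODEL1 replicate 1 or 2 or any MODEL2 replicate (1.81 to 2.36) and with age as a covariate (2.42), and the difference was 3.52 without MODEL1 replicate 3. Exons of Ccnt1 and 9330020H09Rik coincide in part on opposite strands, and the strand setting that would assign their reads is not given.

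Il17rc, the receptor subunit that pairs with IL17RA to bind interleukin-17A and interleukin-17F, lies at chr6:113471427-113483140 on the plus strand. Its counts were low, at 25, 14 and 4 for CTRL, 9, 13 and 18 for MODEL1, and 83, 27 and 46 for MODEL2. The lowest MODEL2 library, replicate 2 at 117 CPM, stood just 1.16-fold above CTRL replicate 1 at 101 CPM, the narrowest gap among the 8 separated genes. Group means were 61.9 ± 42.4 CPM for CTRL, 48.7 ± 12.6 for MODEL1 and 207 ± 102 for MODEL2 (SD, n = 3 each). The log2 difference was 1.74 ± 0.47 against CTRL and 2.08 ± 0.47 against MODEL1. Without MODEL2 replicate 1 it missed the threshold in both (1.30 and 1.65), and without CTRL replicate 3 it missed it against CTRL (1.29).

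The partners of Il17rc were near the limit of detection. Il17ra held 3, 0 and 0 counts in all of CTRL, MODEL1 and MODEL2, which is at or under the 3 counts that a reading of 0 allows. Il17re, the next receptor subunit gene on the same strand 668 bases away, held 0, 0 and 2 counts, and Creld1, 156 bases away on the same strand, held 0, 2 and 0. No gene on the opposite strand lies within 1000 bases. Of 15 interleukin-17 pathway genes, Il17rb, a receptor subunit for interleukin-25, and Traf3ip2, the adaptor Act1, were tested beside Il17rc. Neither passed in any comparison. Their values in MODEL2 against CTRL were -0.29 ± 0.32 and 0.09 ± 0.53. Il17rb shares exon bases with Actr8 and Traf3ip2 with E130307A14Rik, both on the opposite strand.

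Bcl6, a zinc finger repressor needed by germinal centre B cells and known in liver for opposing STAT5 at shared sites, lies at chr16:23965052-23988852 on the minus strand. It held 52, 34 and 30 counts for CTRL, 61, 62 and 106 for MODEL1, and 17, 16 and 12 for MODEL2. The groups did not overlap: every MODEL1 library stood above every CTRL library, and every MODEL2 library below. Levels were 167 ± 42.1 CPM for CTRL, 276.0 ± 52.0 for MODEL1 and 61.0 ± 10.8 for MODEL2 (SD, n = 3 each). The difference was -1.45 ± 0.34 on the log2 scale against CTRL (2.73-fold lower) and -2.17 ± 0.33 against MODEL1 (4.51-fold lower), with MODEL1 at 0.73 ± 0.30 against CTRL. Gm37419, on the opposite strand, shares 21 exon bases with Bcl6 and was not matched to the table.

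B and plasma cell markers held 0 to 3 counts in every library, with Cd79b, Ms4a1 and Mzb1 at 0 in all groups. Of 22 genes listed around BCL6 and STAT5, 7 were tested. Igf1, the growth hormone-driven factor secreted by hepatocytes, fell in both models, with -2.97 ± 0.46 in MODEL2 (edgeR adjusted p = 9.55e-05) and -3.10 ± 0.46 in MODEL1 (edgeR adjusted p = 2.6e-05). It did not pass between the models (0.13 ± 0.56; edgeR adjusted p = 0.936), the comparison in which Bcl6 had its larger difference. The corepressor Ncor1, the transcription factor Stat5a, and the receptors Ghr and Prlr did not pass in any comparison. Their values in MODEL2 against CTRL ran from -0.65 ± 0.56 for Ghr to 0.69 ± 0.58 for Prlr. Ncor1 shares exon bases with Ttc19 and Pigl, and Stat5a with Stat3, all on the opposite strand. Cish and Socs2, STAT5 targets that restrain cytokine signals, held 0 counts everywhere and 3, 2 and 0 counts per group.

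Notch3, the Notch receptor best known from vascular smooth muscle and pericytes, lies at chr17:32120820-32166852 on the minus strand. Counts were 24, 9 and 38 for CTRL, 9, 31 and 33 for MODEL1, and 3, 6 and 7 for MODEL2. All MODEL2 libraries were lowest, but MODEL2 replicate 3 at 28.5 CPM lay close to MODEL1 replicate 1 at 34.1 CPM, and MODEL2 replicate 1 was at the 3 counts that a reading of 0 allows. Means were 99.97 ± 57.9 CPM for CTRL, 89.9 ± 50.2 for MODEL1 and 22.0 ± 9.14 for MODEL2 (SD, n = 3 each). The difference was -2.19 ± 0.58 on the log2 scale against CTRL and -2.02 ± 0.58 against MODEL1. The threshold was missed against CTRL without CTRL replicate 3 (-1.68) or MODEL2 replicate 1 (-1.86), and against MODEL1 without MODEL1 replicate 2 (-1.68), MODEL1 replicate 3 (-1.87) or any MODEL2 replicate (-2.24 to -1.68). Gm17276, on the opposite strand, shares 488 exon bases with Notch3 and was not matched to the table.

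Of 31 Notch pathway genes, 6 were tested, and in MODEL2 against CTRL none but Notch3 passed. The other 5 had a median log2 difference of -0.04 in MODEL2 against CTRL and -0.97 in MODEL1 against CTRL, where all tested genes had medians of 0.00 in each. The receptor Notch1 held 14, 3 and 20 counts for CTRL, 7, 11 and 7 for MODEL1 and 7, 11 and 17 for MODEL2, and did not pass (-0.13 ± 0.58; edgeR adjusted p = 0.916). Aph1a, a subunit of the gamma-secretase that cuts activated Notch, fell in MODEL1 against CTRL (-1.61 ± 0.32; edgeR adjusted p = 0.000644) and was higher in MODEL2 than in MODEL1 (1.68 ± 0.32; edgeR adjusted p = 0.00208). Maml1, a coactivator of the cleaved receptor, fell in MODEL1 (-1.67 ± 0.42; edgeR adjusted p = 0.00518). This was -2.50 without MODEL1 replicate 2, and it did not pass with age as a covariate (-1.26), with CTRL replicate 3 as the only control (-1.41) or without the libraries rich in Rn45s (-0.62). On the opposite strand, Notch1 shares 1389 exon bases with 0610009E02Rik and Gm13568. Aph1a shares exon bases with Car14 and Maml1 with Gm26542, both also on the opposite strand. The receptor Notch2, the DNA-binding factor Rbpj and the target Hes1 were too low to test, with 2, 6 and 0 counts, 1, 1 and 0 counts, and 0, 3 and 0 counts in the 3 groups. The mural marker Rgs5 was at 0 in all groups.

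Tmem161a, which encodes a multi-pass membrane protein, lies at chr8:70172356-70183681 on the plus strand. It held 112, 111 and 63 counts for CTRL, 32, 30 and 69 for MODEL1, and 16, 17 and 11 for MODEL2. The groups formed 3 separate steps, with every MODEL1 library below every CTRL library and every MODEL2 library below every MODEL1 library. Mean levels stepped from 418 ± 140.5 CPM in CTRL to 155 ± 53.4 in MODEL1 and 59.8 ± 14.4 in MODEL2 (SD, n = 3 each). The difference was -2.80 ± 0.36 on the log2 scale against CTRL (6.94-fold lower) and -1.38 ± 0.37 against MODEL1 (2.61-fold lower). Against MODEL1 the threshold was missed without MODEL1 replicate 3 (-1.04), MODEL2 replicate 1 (-1.39) or MODEL2 replicate 3 (-1.21). Slc25a42, a mitochondrial carrier gene 658 bases away on the opposite strand, held 13, 9 and 8 counts in the 3 groups and was not tested.

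Abca3, the phospholipid transporter of surfactant-storing lamellar bodies in lung, lies at chr17:24351950-24410201 on the plus strand. Libraries held 122, 59 and 62 counts for CTRL, 46, 44 and 65 for MODEL1, and 18, 19 and 23 for MODEL2. As for Tmem161a, the groups formed 3 steps that did not overlap, and the highest MODEL2 library stood 1.87-fold below the lowest other library. The steps were 346 ± 127 CPM for CTRL, 189 ± 14.9 for MODEL1 and 81.5 ± 12.2 for MODEL2 (SD, n = 3 each). Abca3 differed by -2.09 ± 0.32 on the log2 scale from CTRL (4.24-fold lower) and by -1.21 ± 0.32 from MODEL1 (2.31-fold lower). Against MODEL1 the threshold was missed without MODEL1 replicate 2 (-1.24), MODEL1 replicate 3 (-1.14) or any MODEL2 replicate (-1.31 to -1.08). Among 12 ABCA transporters only Abca9 was tested beside it, and that gene fell in MODEL1 against CTRL (-2.42 ± 0.52; edgeR adjusted p = 0.00144), with -3.14 when MODEL1 replicate 1 was left out. It did not pass with age as a covariate (-2.21).

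Abca3 shares 914 exon bases, 9.75% of its exons, with the more abundant D330041H03Rik on the opposite strand. D330041H03Rik held 753, 719 and 688 counts for CTRL, 524, 357 and 583 for MODEL1, and 1003, 881 and 903 for MODEL2. It was lower in MODEL1 than in CTRL (-0.82 ± 0.17; edgeR adjusted p = 0.00121), as Abca3 was, though not with age as a covariate (-0.68). From MODEL1 to MODEL2 it rose by 1.08 ± 0.17 (edgeR adjusted p = 0.000446) where Abca3 was lower, and against CTRL it did not pass (0.27 ± 0.17; edgeR adjusted p = 0.349). A small nuclear RNA gene, Gm25618, also lies on the opposite strand within Abca3.

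R3hdml, a CAP superfamily gene, lies at chr2:163492318-163502612 on the plus strand, 4195 bases upstream of Hnf4a. It was the least even of the 10, with 35, 4 and 104 counts for CTRL, 59, 88 and 65 for MODEL1, and 3, 12 and 2 for MODEL2. CTRL replicate 2, at 19.4 CPM, lay inside the MODEL2 range, whose top was MODEL2 replicate 2 at 51.8 CPM, and MODEL2 replicates 1 and 3 were at or under the 3 counts that a reading of 0 allows. The MODEL1 libraries stood clear above all MODEL2 libraries. Levels were 199 ± 214 CPM for CTRL, 267 ± 92.8 for MODEL1 and 23.8 ± 24.3 for MODEL2 (SD, n = 3 each). R3hdml had the largest fitted differences of the set and the widest standard errors, at -3.08 ± 0.73 on the log2 scale against CTRL and -3.49 ± 0.71 against MODEL1. Without CTRL replicate 3 the difference from CTRL was -1.81 and missed the threshold. Without MODEL2 replicate 2 the values were -4.29 and -4.69. Of 12 CAP genes only Glipr1 was tested beside it, and it did not pass (0.16 ± 0.22 in MODEL2 against CTRL). Glipr1 shares exon bases with Krr1 on the opposite strand.

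Hnf4a, the hepatocyte nuclear receptor gene downstream of R3hdml on the same strand, held 19, 20 and 7 counts in the 3 groups, too few for the test. Its scaled ratio was 0.345 in MODEL2 against CTRL (exact 95% interval 0.123 to 0.858) and 0.387 against MODEL1 (0.138 to 0.954), intervals that cover counting error only. Hnf4aos, an antisense gene whose body overlaps that of R3hdml without a shared exon base, held 16, 11 and 6 counts, with a ratio of 0.352 in MODEL2 against CTRL (0.113 to 0.946). For Hnf4aos the ratio was 0.604 in MODEL2 against MODEL1 (0.183 to 1.78) and 0.582 in MODEL1 against CTRL (0.244 to 1.34). Both of these intervals include equal levels. The 2 neighbours were lowest in MODEL2 by count, as R3hdml was, but only for Hnf4a did both MODEL2 intervals exclude equal levels. The search along the same strand, out to 5000 bases, was added after the values were seen.

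**Figure D3:**
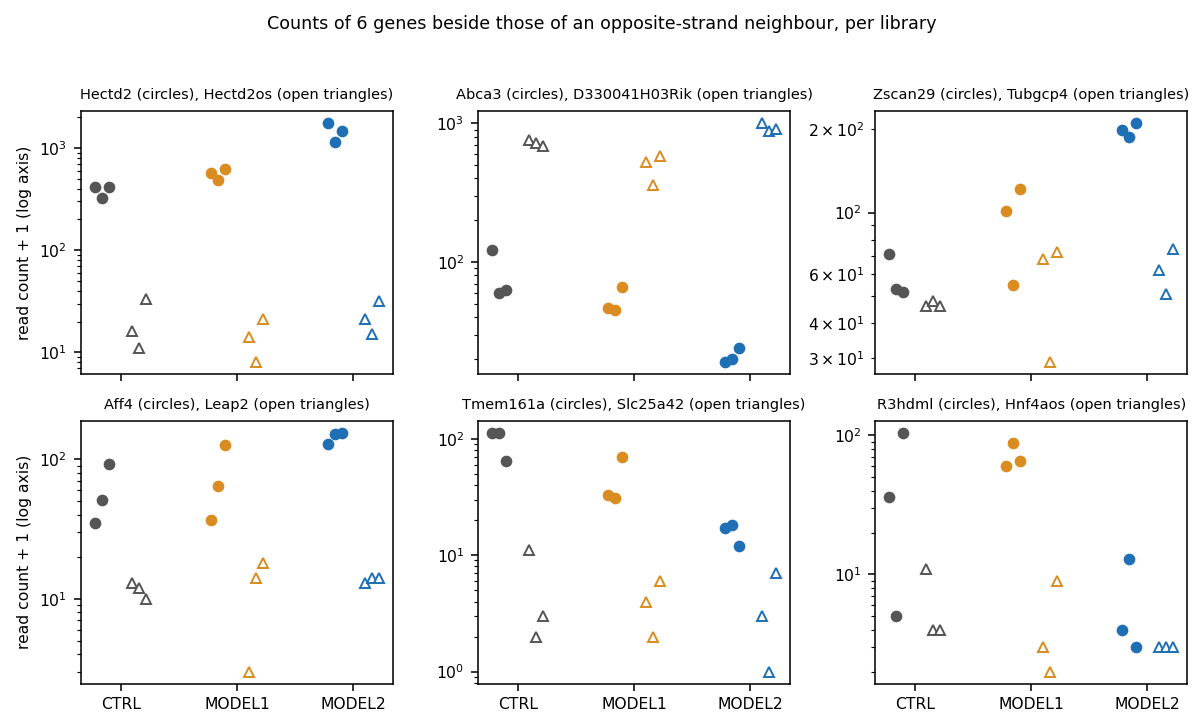
Read count plus 1 (vertical axis, log scale) per library for 6 of the genes (filled circles) and a neighbour on the opposite strand (open triangles) in CTRL, MODEL1 and MODEL2. Hectd2 and Zscan29 are highest in MODEL2 while the triangles of Hectd2os and Tubgcp4 overlap between groups, and Abca3 is lowest in MODEL2 where D330041H03Rik is highest.

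Exon overlap with a gene on the opposite strand was found for 6 of the 10 genes (60%), namely Hectd2, Nedd4l, Bcl6, Notch3, Abca3 and Zscan29. Among the 2526 tested genes that could be placed on the genome the share was 61.0%, and among all 23335 placed symbols it was 24.1%. The 10 genes therefore lay close to the share of the genes tested. Aff4, Il17rc, R3hdml and Tmem161a had no such overlap.

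Promoter stretches from RefSeq (GRCm38.p6) were used for 7 of the 10 genes, with 8 start sites. No window of Hectd2, Nedd4l or Tmem161a was searched, so nothing is said of motifs in these genes. The 250 bases before each start were searched on both strands for TGACNNNGC (the antioxidant response element core bound by NFE2L2), TCAAAG (TCF/LEF, the DNA partners of beta-catenin), TGGGAA (RBPJ, the DNA partner of Notch) and TTCNNNGAA (the GAS element bound by STAT factors). Shown are the windows of Aff4, the only one with an NFE2L2 motif, of Bcl6, which held 4 GAS elements over its alternative starts, and of R3hdml, the gene with the largest differences. Matches, on either strand, are in capitals, and none overlapped another. Each window is written 5′ to 3′ on the strand of its gene and covers no GENCODE exon.
Aff4, chr11:53350517-53350766, plus strand: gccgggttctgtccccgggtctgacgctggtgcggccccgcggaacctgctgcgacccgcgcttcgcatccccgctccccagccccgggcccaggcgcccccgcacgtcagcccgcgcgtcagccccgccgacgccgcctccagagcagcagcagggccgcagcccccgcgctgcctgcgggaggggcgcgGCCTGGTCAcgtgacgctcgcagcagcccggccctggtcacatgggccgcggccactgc
Bcl6, chr16:23988853-23989102, minus strand: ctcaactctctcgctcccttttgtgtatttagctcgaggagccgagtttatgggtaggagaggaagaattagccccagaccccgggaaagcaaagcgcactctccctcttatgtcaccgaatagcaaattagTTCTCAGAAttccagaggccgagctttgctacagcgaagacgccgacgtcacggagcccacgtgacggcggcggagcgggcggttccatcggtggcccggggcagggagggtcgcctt
Bcl6 inner start, chr16:23981284-23981533, minus strand: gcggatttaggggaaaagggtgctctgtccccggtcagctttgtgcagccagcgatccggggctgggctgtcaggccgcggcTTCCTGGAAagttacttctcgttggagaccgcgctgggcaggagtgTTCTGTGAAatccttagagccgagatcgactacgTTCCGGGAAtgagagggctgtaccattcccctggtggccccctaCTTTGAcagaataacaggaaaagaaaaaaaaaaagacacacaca
R3hdml, chr2:163492068-163492317, plus strand: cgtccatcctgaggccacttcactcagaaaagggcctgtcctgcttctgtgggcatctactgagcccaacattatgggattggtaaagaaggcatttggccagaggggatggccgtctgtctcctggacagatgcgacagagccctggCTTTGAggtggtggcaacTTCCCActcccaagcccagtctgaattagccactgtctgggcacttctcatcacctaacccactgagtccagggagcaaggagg
The stretch just after the RefSeq start of Aff4, Notch3 and the inner Bcl6 window was found in no GENCODE transcript of that gene. The Aff4 match began 59 bases before the RefSeq start. This motif was held by 1 of the 8 windows and by 10.2% of the 32851 promoters of the same length. GAS elements were found in both Bcl6 windows, 1 at the outer start and 3 at the inner one, and in 7.02% of all promoters. TCF/LEF motifs were in the inner Bcl6 window and in R3hdml (13.8% of all promoters), and RBPJ motifs in R3hdml and Il17rc (21.6%). No match was found in the windows of Abca3, Notch3 and Zscan29. The GC content of the 8 windows was 54.8% to 79.2%, against a median of 52.4%. A match is a string of letters and says nothing of binding.

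Levels per kilobase of exon, taken over all annotated exons of each gene, put Hectd2 first in CTRL and MODEL2. They compare genes only roughly, since the transcript forms present and the strand setting are not known. In CTRL it stood at 184 ± 10.3 CPM per kilobase, beside R3hdml at 182 ± 196 and Tmem161a at 114 ± 38.2 (SD, n = 3 each). R3hdml could not be set apart from either neighbour beyond its spread. The other 7 lay between 12.4 (Notch3) and 36.9 (Abca3). In MODEL1, R3hdml (244 ± 84.8) and Hectd2 (226 ± 11.0) led and overlapped. In MODEL2 the order was Hectd2 at 649 ± 102, Zscan29 at 112 ± 6.29, Il17rc at 77.6 ± 38.3, Nedd4l at 54.2 ± 26.4, Aff4 at 44.0 ± 6.50, R3hdml at 21.8 ± 22.2 and Tmem161a at 16.3 ± 3.93. Bcl6 (9.11 ± 1.61), Abca3 (8.70 ± 1.31) and Notch3 (2.72 ± 1.13) followed. Neighbours in this order differed by more than the sum of their SDs at 3 steps, from Hectd2 to Zscan29, from Tmem161a to Bcl6 and from Abca3 to Notch3.

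Every MODEL2 mouse was older than every CTRL and MODEL1 mouse, so age and group can be separated only in part. All MODEL1 mice were 18 weeks old, so the age term was set by differences within CTRL and within MODEL2. Within CTRL it rests on replicate 3, which also held less Rn45s (2.43% of counts, against 10.3% and 6.89% in replicates 1 and 2). The setting with that replicate as the only control, given below, rests on the same mouse. Aff4 and Nedd4l were highest within CTRL in the 17-week-old mouse, replicate 3, at 386 and 625 CPM. For Hectd2 the CTRL mice spanned just 1563 to 1744 CPM, with that mouse at the top, and for Zscan29 that mouse was lowest, at 214 CPM. With age as a covariate, Hectd2 kept 1.78 ± 0.37 in MODEL2 against CTRL and Zscan29 1.89 ± 0.54. Aff4 came to 0.05 ± 0.64, Bcl6 to -0.56 ± 0.68, Tmem161a to -1.46 ± 0.64 and Abca3 to -1.58 ± 0.66, and Nedd4l turned to -0.86 ± 0.49. These 5 and Zscan29 missed the threshold. The differences of Il17rc (4.13 ± 0.99), Notch3 (-3.90 ± 1.02) and R3hdml (-5.62 ± 1.04) grew. Against MODEL1 with age as a covariate, Aff4 (0.65), Tmem161a (-0.90) and Abca3 (-1.01) missed the threshold, and Nedd4l came to 1.22. With CTRL replicate 3 as the only control, a setting added after the data were seen, Hectd2 stood at 1.78, Zscan29 at 1.93, Nedd4l and Aff4 at 0.64 each and Bcl6 at -1.01, the last 3 no longer past the threshold. Il17rc (3.62), Notch3 (-2.82), Tmem161a (-2.11) and R3hdml (-4.18) passed there.

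**Figure D4:**
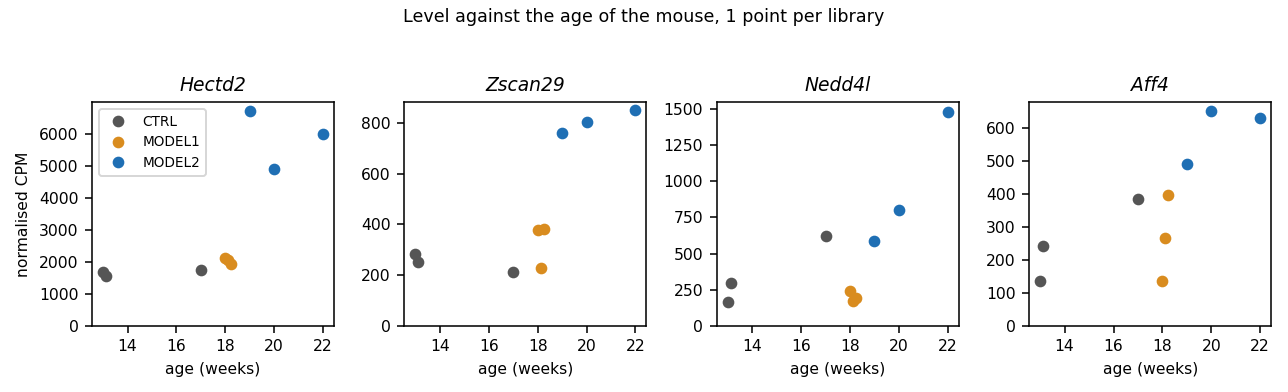
Normalised CPM (vertical axis) against age in weeks (horizontal axis; mice of one age are set slightly apart) for Hectd2, Zscan29, Nedd4l and Aff4, with 1 point per library in CTRL, MODEL1 and MODEL2. The CTRL mouse aged 17 weeks lies close to the other CTRL mice for Hectd2 (1744 CPM) and above them for Nedd4l (625 CPM) and Aff4 (386 CPM).

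Of the 10 genes, only Hectd2 passed in both MODEL2 comparisons in each of the 19 settings in which they could be fitted. Zscan29 missed once, against CTRL with age as a covariate. Hectd2, Bcl6 and Zscan29 kept both calls when any single library was left out. Without the 3 libraries rich in Rn45s, Nedd4l (1.07), Aff4 (0.93) and Bcl6 (-1.22) missed the threshold against CTRL. In that setting Il17rc (1.98), Aff4 (1.22), Notch3 (-2.49), Tmem161a (-1.01) and Abca3 (-1.11) missed it against MODEL1. Directions held for every gene in every setting of both MODEL2 comparisons except for Nedd4l with age as a covariate.

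**Figure D5:**
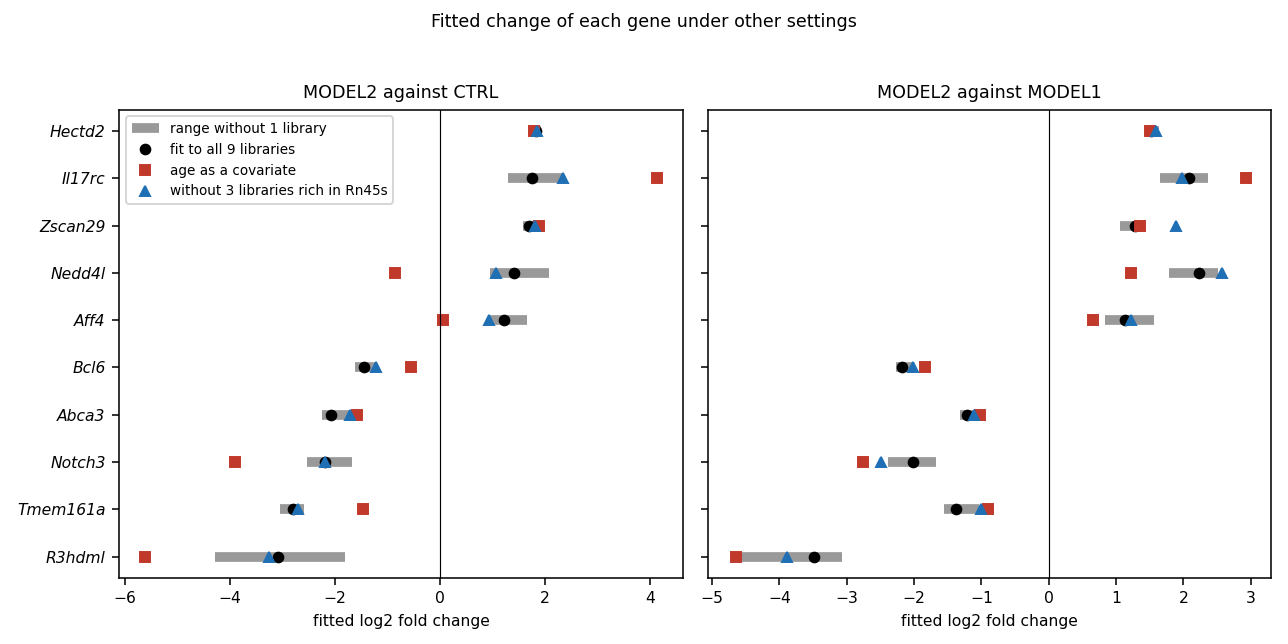
Fitted log2 fold change (horizontal axis) of each gene in MODEL2 against CTRL (left) and MODEL2 against MODEL1 (right), from all 9 libraries (black circle), with age as a covariate (red square), without the 3 libraries rich in Rn45s (blue triangle) and over the fits without 1 library (grey bar). Hectd2 barely moves, while the age setting carries Nedd4l to -0.86 and Aff4 to 0.05 against CTRL.

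Across the 9 libraries the higher genes varied together to differing degrees, with Pearson r of log2 CPM between 0.40 and 0.94 over their 10 pairs (median 0.74), and the lower genes likewise (0.38 to 0.92, median 0.69). These values are a description, since all pairs share libraries and the choice of genes by group sets their sign. The tested gene most like each one over the 9 libraries was Ubqln2 for Zscan29 (r = 0.944), Atp6v1c2 for Nedd4l (0.943), Apba3 for Hectd2 (0.940), Ckap5 for Abca3 (0.938), Gm17801 for Aff4 (0.927), Fam222b for Bcl6 (0.926), Rfxap for Tmem161a (0.917) and Ahsa2 for Il17rc (0.903). Abi2 was the closest gene to both Notch3 (0.935) and R3hdml (0.921). Each of these r is the highest of 2629 compared genes and is a description only. Ubqln2 held just 2 to 12 counts per library. Ubqln2, Atp6v1c2, Gm17801, Fam222b, Ahsa2 and Abi2 did not pass in any comparison. On the opposite strand, Atp6v1c2 shares exon bases with Pdia6, Apba3 with Tjp3, and Ahsa2 with Usp34 and 1700030C12Rik.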

How the data were processed

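The deposited table held raw read counts per gene symbol for 9 liver libraries, with no normalization, as the authors made it. The submitters' processing notes name build mm10 and the tools HTSeq 0.11.2, Trimmomatic 0.38 and HISAT2 2.1.0; the role of each tool, the annotation and the strand setting are not given in the sources used here. Groups came from the labels, and each library is taken as 1 mouse because the labels give each its own sample name. Ages repeat within CTRL and within MODEL1, so age alone does not tell the mice apart.

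The quasi-likelihood test of edgeR 4.0.16 (R 4.3.3) was run on the 2639 genes that filterByExpr kept at a minimum count of 10, after TMM scaling. All 9 libraries entered, each group having its own coefficient. Tests were two-sided with Benjamini-Hochberg adjustment over all tested genes, and a call was an adjusted p under 0.05. The p-values measure the spread between these samples. CPM refers to counts in tested genes after TMM. The fit was tested on simulated counts. Alternatives were DESeq2 1.42.0, other scalings and filters, age or replicate number as a term, and leaving out libraries.

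The 10 genes, the 8 gene lists (160 genes) and the 9 marker lists were chosen with earlier results of these data known. All 10 genes are described. Some tested list genes are not reported here. Further genes are named when they passed in a list, were tested members of a small list, overlapped or lay within 1000 bases on the opposite strand, or had the highest correlation. Genes high in just one group could pass the count filter because of it. Overlaps came from GENCODE M21 on mm10.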

Additional observations from a re-analysis of the deposited data

How the results depend on the processing

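With age as a covariate, 71 genes passed in MODEL2 against CTRL, 101 in MODEL2 against MODEL1 and 299 in MODEL1 against CTRL, compared with 350, 192 and 602 in the analysis reported; 4 of the 10 genes passed against CTRL, and Nedd4l reversed to -0.86. Without the 3 libraries rich in Rn45s the counts were 210, 62 and 299, with 5 of the 10 genes in MODEL2 against MODEL1. With CTRL replicate 3 as the only control, 209 genes passed in MODEL2 against CTRL; the lone control is assumed to vary like the other groups. Leaving out 1 library gave 221 to 379, 85 to 226 and 497 to 636 genes, with 7 to 10, 5 to 10 and 1 to 3 of the 10. The filter was run anew in each fit, so these counts stand on unlike numbers of tested genes. It kept 2639 genes with age or the replicate block, and 2898 to 3013 with 1 library left out. Without the Rn45s-rich libraries it kept 3476, and with CTRL replicate 3 as the only control 3569. In MODEL1 against CTRL, 1 of the 10 passed instead of 2 with only those groups fitted, with age, with the replicate block, without the Rn45s-rich libraries and with CTRL replicate 3 as the only control. With age and with CTRL replicate 3 as the only control that 1 was Nedd4l, and neither Tmem161a nor Abca3 passed; in the other 3 settings it was Tmem161a. The replicate block gave 290, 125 and 543 genes, and 10, 9 and 1 of the 10. No pairing of the mice by number was seen: deviations of same-numbered libraries correlated at -0.121 to 0.0103, and 2 of 18 best matches were to the same number. With 3 libraries per group, this check cannot exclude a pairing. The cause of these changes was not tested. DESeq2, other size factors, no filter, a filter at 1 CPM and removal of Rn45s kept all 10 genes in their direction in both MODEL2 comparisons. Against MODEL1, however, Aff4 lost its call with other size factors (1.09, edgeR adjusted p = 0.0532). Abca3 lost its call against MODEL1 with no filter (-1.13, edgeR adjusted p = 0.0842). Notch3 failed the filter when only MODEL2 and one other group were fitted. Depth limits the low genes: Il17rc, Notch3 and R3hdml had libraries with 4 counts or fewer.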

Other observations

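Besides the 10 genes, 7 others passed in both MODEL2 comparisons in the same direction, so 17 of the 2639 tested genes did; these 7 are named because of their values, which are given as a description. Pitx3, a homeobox transcription factor known from lens and midbrain, held 7, 2 and 8 counts for CTRL, 0, 2 and 1 for MODEL1 and 28, 50 and 30 for MODEL2. Its MODEL2 libraries stood clear of the others, at 2.58 on the log2 scale against CTRL, and it was also called lower in MODEL1 than in CTRL (-2.56). Its exons share 10 bases with Elovl3 on the opposite strand.

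Apba3, an adaptor of the X11 family, was higher in MODEL2 by 2.23 against CTRL and 1.68 against MODEL1. Gpr137b-ps (1.08 and 1.47), the pacemaker channel gene Hcn3 (1.07 and 0.98), the secreted C1q-like gene C1ql3 (0.82 and 0.80) and the O-mannosyltransferase gene Pomt2 (0.67 and 0.83) were higher too. Gm12992 was lower, at -0.65 and -0.71. Apba3 held just 5 to 12 counts per library in CTRL and MODEL1. Its call against CTRL was lost with age as a covariate (2.75), and the difference was 2.09 with CTRL replicate 3 as the only control. Against MODEL1 its call was lost with age (1.87) and without the libraries rich in Rn45s (1.36). The same held without MODEL1 replicate 1 or 3 and without MODEL2 replicate 1 or 2 (1.49 to 1.68). On the opposite strand, Apba3 shares exon bases with Tjp3, Hcn3 with Pklr, Pomt2 with Gstz1, C1ql3 with Gm37824 and Gm37811, and Gm12992 with Srsf4.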
